A study of Mus musculus with 96 samples.

Results

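The keratin gene family was followed through the day in mouse epidermis. Members were taken by name, as every gene whose symbol is Krt followed only by digits, which gave 50 of the 22384 genes present in all 4 deposited tables. Of these, 18 had a mean of at least 1 RPKM (reads per kilobase and per M reads of depth) over the 96 libraries and were tested among 12144 genes in all, and 32 fell below that minimum. The 18 measured members hold 9 type I genes on chromosome 11 and 9 type II genes on chromosome 15. Keratins are the proteins of intermediate filaments in epithelial cells, where a type I chain always pairs with a type II chain. Basal keratinocytes make Krt5 and Krt14, and cells that leave the basal layer switch to Krt1 and Krt10 as they move outward. Other members mark the hair follicle, the hair shaft, wounded or stressed skin, and simple epithelia.

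RNA came from back-skin epidermis, freed with dispase, of C57BL/6 males at 8 weeks of age under 12 h light and 12 h dark, with 4 mice per genotype at each of 6 times of day (ZT0, lights on, then every 4 h). The groups differ in where Arntl, which encodes the clock activator BMAL1, is intact. WT mice are Arntl wt/wt with K14Cre wt/tg and Syt10-Cre tg/wt, so they carry both Cre transgenes. RERE mice (brain and epidermis reconstituted) are Arntl stopFL/stopFL with K14Cre tg/wt and Syt10-Cre tg/wt, EpiRE mice (epidermis reconstituted) are Arntl stopFL/stopFL with K14Cre tg/wt and Syt10-Cre wt/wt, and BRE mice (brain reconstituted) are Arntl stopFL/stopFL with K14Cre wt/wt and Syt10-Cre tg/wt. K14Cre is named after keratin 14, the gene whose promoter drives such transgenes in basal keratinocytes, and BRE is the only group without it, so in every contrast with BRE the state of the epidermal clock and the presence of this transgene cannot be told apart. Estimated depth was 11.2 to 32.3 M reads per library with a median of 16.5 M. Markers fitted the labelled tissue. The summed level of 5 basal keratinocyte markers was 8425 to 13385 RPKM in WT, but Krt5 and Krt14 of this family are among them. Without these keratins, Itga6, Itgb4 and Col17a1 summed to 950 to 1606 RPKM in WT. The 5 Merkel cell markers, which include Krt8 and Krt20, summed to at most 0.889 RPKM in any library. The 6 T cell markers, none a keratin, summed to 33.8 to 89.8 RPKM in WT. In bulk RNA, fewer cells of a type and less RNA per cell cannot be told apart.

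All 50 keratins together made up 7.06% ± 0.68 (SD, n = 24) of the summed RPKM of all genes in WT. Their share was 7.15% ± 0.66 in RERE, 7.24% ± 0.51 in EpiRE and 7.58% ± 0.53 in BRE. For the sums below, type was set by chromosome over all 50 members. Krt18, the partner of Krt8, lies on chromosome 15 and was thus counted with type II, at a mean of 0.1465 RPKM. The type I genes summed to 14381 ± 1216 RPKM in WT and the type II genes to 11840 ± 1278 RPKM. The log2 ratio of the type I to the type II sum was 0.28 ± 0.06 in WT, 0.30 ± 0.07 in RERE, 0.29 ± 0.04 in EpiRE, with 0.28 ± 0.07 in BRE, so the balance of the chains, as summed mRNA, was close to constant between libraries. The 4 tables were normalized separately by the authors. Mean levels are therefore set side by side below without a test.

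Basal members were among the most abundant. Krt5, the type II basal chain (chromosome 15, 101707070 to 101712898, minus strand, mm10), had a mean level of 6307 ± 729 RPKM in WT, 6219 ± 869 in RERE, 6335 ± 725 in EpiRE, with 6254 ± 969 in BRE (SD, n = 24 mice). Its type I partner Krt14 (chromosome 11, 100203162 to 100207548, minus strand) had 3163 ± 517, 2839 ± 433, 2826 ± 490 and 3011 ± 505 RPKM in the same order. Krt15, a type I chain of basal cells and of the follicle bulge, had 3763 ± 663, 4178 ± 509, 4229 ± 441 and 3526 ± 360 RPKM. Every one of these spreads overlaps between genotypes. All 3 basal members passed the minimum.

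Of 8 suprabasal members 7 were measured. Krt10, the type I chain of spinous cells (chromosome 11, 99385254 to 99389364, minus strand), was the most abundant keratin on average, at 6364 ± 1662 RPKM in WT, 6642 ± 1374 in RERE, 6678 ± 1200 in EpiRE, with 7861 ± 1683 in BRE. Krt1, its usual type II partner (chromosome 15, 101845426 to 101850794, minus strand), stayed near 2422 ± 541, 2490 ± 387, 2427 ± 505 and 2430 ± 412 RPKM. Krt77, another type II chain of differentiated cells (chromosome 15, 101858731 to 101869705, minus strand), was at 2579 ± 912, 2706 ± 793, 2806 ± 668 and 3536 ± 1017 RPKM. Krt10 and Krt77 thus had their highest mean in BRE, by 0.32 and 0.49 on the log2 scale over WT, while Krt1 differed between genotypes by far less than its spread. Krt78 was at 85.2 ± 26.9 RPKM in WT and Krt80 at 71.5 ± 10.5, and Krt24, a type I chain, was close to the minimum at 3.15 ± 1.40. Krt9, the keratin of palm and sole skin, had a mean of 0.126 RPKM and was not measured.

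Promoters are shown for Krt10, Krt77 and Krt78, which were called together in BRE, and for Krt2, whose level set BRE apart. They are the 250 bases before the start of each gene from RefSeq (GRCm38.p6), written 5′ to 3′ along the gene, with motif matches in capitals:
Krt10 (chr11:99389365-99389614, minus strand): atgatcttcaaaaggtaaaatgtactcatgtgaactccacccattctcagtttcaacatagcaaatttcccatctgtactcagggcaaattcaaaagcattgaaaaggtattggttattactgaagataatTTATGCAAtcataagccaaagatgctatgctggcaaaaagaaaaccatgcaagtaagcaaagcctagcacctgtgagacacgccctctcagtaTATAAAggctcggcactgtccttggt
Krt77 (chr15:101869706-101869955, minus strand): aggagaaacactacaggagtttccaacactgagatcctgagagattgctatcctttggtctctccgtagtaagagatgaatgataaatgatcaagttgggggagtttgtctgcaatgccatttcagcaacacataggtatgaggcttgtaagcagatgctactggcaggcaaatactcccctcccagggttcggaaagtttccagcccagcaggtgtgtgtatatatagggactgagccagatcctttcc
Krt78 (chr15:101954288-101954537, minus strand): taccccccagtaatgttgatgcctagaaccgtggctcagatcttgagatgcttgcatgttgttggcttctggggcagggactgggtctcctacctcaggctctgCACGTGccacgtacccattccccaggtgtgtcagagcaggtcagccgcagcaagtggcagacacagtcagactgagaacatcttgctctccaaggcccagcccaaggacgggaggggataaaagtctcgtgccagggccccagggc
Krt2 (chr15:101818170-101818419, minus strand): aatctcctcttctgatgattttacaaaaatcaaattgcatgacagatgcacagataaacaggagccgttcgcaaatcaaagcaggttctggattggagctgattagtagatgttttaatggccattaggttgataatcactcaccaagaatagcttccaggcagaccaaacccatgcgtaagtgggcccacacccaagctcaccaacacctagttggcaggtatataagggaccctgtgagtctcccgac

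Motifs searched on both strands were CACGTG (the E-box bound by BMAL1 with CLOCK), TTATGNAA (a D-box), TGANTCA (an AP-1 site) and TATAAA, where the general transcription machinery docks. Krt78 holds CACGTG starting at -146 from the gene's start, and Krt10 holds TTATGNAA at -119 and TATAAA at -26, while none of the 4 was found in these windows of Krt77 and Krt2. Of 13 measured keratins with a RefSeq promoter, CACGTG was found in Krt23, Krt75 and Krt78, TTATGNAA in Krt10, TATAAA in Krt10, Krt25 and Krt32, and TGANTCA in 0. Over 32851 promoters the shares were 6.02% for CACGTG, 3.07% for TTATGNAA, 6.75% for TGANTCA and 12.4% for TATAAA. A match describes the letters only.

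Stress and follicle members were all measured. Krt16 and Krt17, which rise in wounded and hyperproliferative skin and are present in the outer root sheath, had WT means of 419 ± 88.6 and 594 ± 129 RPKM. Krt79, a marker of the follicle infundibulum, had 357 ± 114 RPKM in WT, 233 ± 73.3 in RERE, 243 ± 103 in EpiRE, with 328 ± 115 in BRE. Krt75, of the companion layer of the follicle, had 3.28 ± 2.57 RPKM in WT, with single mice up to 10.2, and 1.65 ± 0.81 in RERE, 1.72 ± 1.08 in EpiRE and 1.97 ± 1.56 in BRE. In all 4 of these genes WT had the highest mean, and the ranges of the mice overlapped between every pair of genotypes. Some markers of growing follicles were also highest in WT. The summed level of 5 melanocyte markers had a median of 12.1 RPKM in WT against 8.48 to 9.09 in the other genotypes. Among them Dct had a mean of 5.07 against 1.46 to 2.02, but Tyr was level at 3.98 against 3.91 to 4.20. For 10 hair matrix and shaft markers the median was 13.3 against 11.1 to 11.3. There Hoxc13 was at 2.79 against 1.24 to 1.41, but Msx2 was level at 5.10 against 5.01 to 5.07. For 6 sebaceous gland markers the median was 158 in WT and 155 to 170 elsewhere. Of these, Mgst1 had 22.8 against 11.2 to 14.9 and Elovl3 had 3.24 against 1.16 to 1.68, but Fasn was level at 35.86 against 35.73 to 37.05. The part of follicle cells in the keratin means was not tested.

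**Figure D1:**
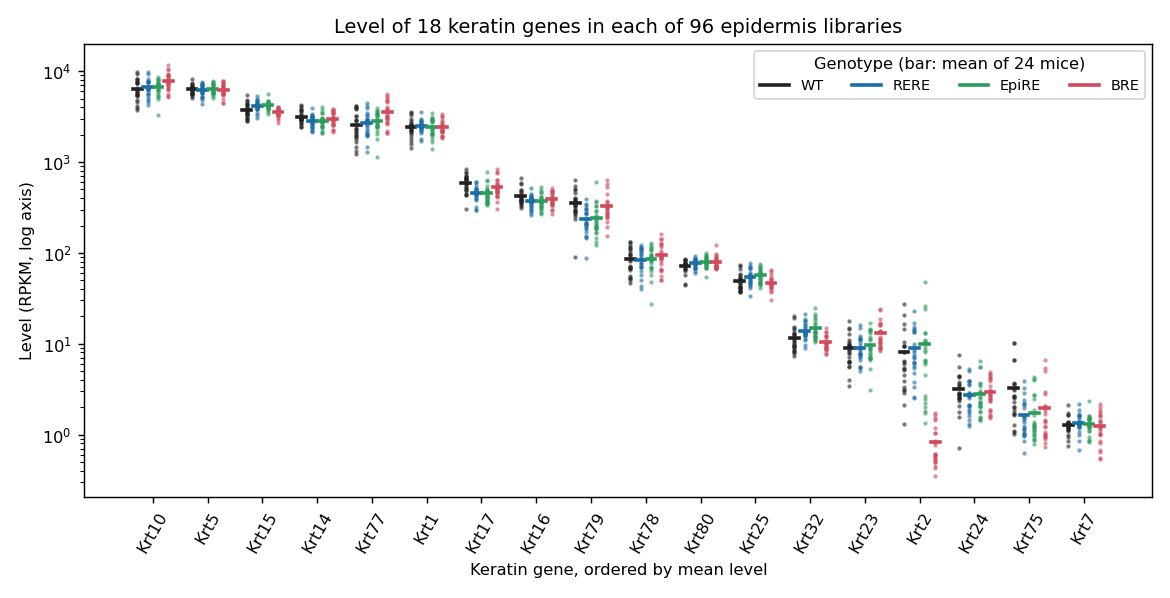
Level of each measured keratin in RPKM (log axis), genes ordered by mean level; each point is 1 mouse and each bar the mean of 24 mice of a genotype. The genotypes lie on top of each other for nearly every gene, except Krt2, whose BRE points (0.347 to 1.72 RPKM) sit below nearly all others.

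Few members outside these groups reached the minimum. Of 8 inner root sheath keratins only Krt25 was measured (48.6 ± 10.7 RPKM in WT, 54.8 ± 10.5 in RERE, 56.4 ± 9.43 in EpiRE, with 46.9 ± 7.89 in BRE). Of 13 hair shaft keratins only Krt32 was (11.5 ± 3.38, 13.9 ± 2.83, 14.8 ± 3.62 and 10.3 ± 1.89 RPKM). Of 6 keratins of simple epithelia or Merkel cells, Krt23 (8.91 ± 3.47 RPKM in WT and 13.1 ± 4.43 in BRE) and Krt7 (1.28 ± 0.29 in WT) were measured. Just inside the minimum lay Krt7 with a mean of 1.3 RPKM over all libraries, Krt75 with 2.15 and Krt24 with 2.89. Just outside lay Krt42 with 0.885, Krt4 with 0.819 and Krt12 with 0.801 RPKM.

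The 32 members below the minimum had means from 0.0646 to 0.885 RPKM, and their highest single value was 4.2 RPKM. They were Krt9, the simple epithelial and Merkel keratins Krt8, Krt18, Krt19 and Krt20, the inner root sheath keratins Krt26, Krt27, Krt28, Krt71, Krt72, Krt73 and Krt74, and 12 hair shaft keratins (Krt31, Krt34, Krt35, Krt36, Krt39, Krt40, Krt81, Krt82, Krt83, Krt84, Krt86 and Krt87). The mucosal and corneal keratins Krt4, Krt12, Krt13 and Krt76, and Krt42, Krt88, Krt90 and Krt222, complete the list. Krt8 and Krt18, the partner chains of simple epithelia and Merkel cells, had means of 0.223 and 0.147 RPKM. The 7 unmeasured inner root sheath keratins summed to a median of 2.66 RPKM in WT (1.03 to 11 over 24 mice), 1.47 in RERE (0.739 to 3.37), 1.36 in EpiRE (0.856 to 6.67) and 1.2 in BRE (0.792 to 2.31). The 2 highest sums belonged to WT mice, replicate 1 at ZT20 (11 RPKM) and replicate 1 at ZT16 (10.3 RPKM), which were also the 2 mice with the highest Krt75 (10.2 RPKM each). Replicate 3 of EpiRE at ZT16 had the highest value of 8 of the 32 genes.

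The largest difference in level concerned Krt2, a type II keratin of late suprabasal cells that is abundant in tail and ear skin (chromosome 15, 101810689 to 101818169, minus strand). Its mean level was 8.03 ± 6.26 RPKM in WT, 8.94 ± 5.15 in RERE, 9.89 ± 10.4 in EpiRE, with 0.817 ± 0.407 in BRE (SD, n = 24). Single mice ranged from 1.29 to 27.2 RPKM with a median of 6.12 in WT, from 2.53 to 22.9 with a median of 7.28 in RERE, from 1.35 to 48.1 with a median of 7.37 in EpiRE, and from 0.347 to 1.72 with a median of 0.61 in BRE. The highest BRE mouse lay below all 24 RERE mice, and 1 WT mouse and 1 EpiRE mouse lay at or below it. The BRE mean is below the minimum of 1 RPKM, so Krt2 counts as measured only through the other genotypes.

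Geometric means of Krt2 were 8.48-fold lower in BRE than in WT, 10.4-fold lower than in RERE and 8.90-fold lower than in EpiRE. Of the 18 measured keratins only Krt2 differed by 2-fold or more in these contrasts (1 of 18 in each), where 0.543% of all tested genes did so between BRE and WT, 0.313% between BRE and RERE and 0.313% between BRE and EpiRE. Between RERE and WT and between EpiRE and WT, 0 of 18 keratins did (0.115% of tested genes in each), and 0 of 18 between EpiRE and RERE (0.0%). Counting Krt2 itself, 3 tested genes differed as much between BRE and WT, 1 between BRE and RERE and 3 between BRE and EpiRE. The median difference over all tested genes was -0.05 on the log2 scale between BRE and WT.

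The Krt2 difference held within libraries, where scaling cancels. The log2 ratio of Krt2 to Krt1 was -8.57 ± 0.95 in WT, -8.34 ± 0.79 in RERE, -8.50 ± 1.15 in EpiRE, with -11.67 ± 0.57 in BRE (SD, n = 24), and its BRE range of -12.64 to -10.45 overlapped slightly with those of WT (-10.49 to -6.50) and EpiRE (-10.47 to -5.94). An estimated 13 to 86 reads per BRE library stand behind Krt2, against 62 to 1112 in WT. No 51-base stretch of its exons occurs in another keratin gene. Because the BRE table was normalized and deposited on its own, a difference between the groups of mice other than genotype was not tested.

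**Figure D2:**
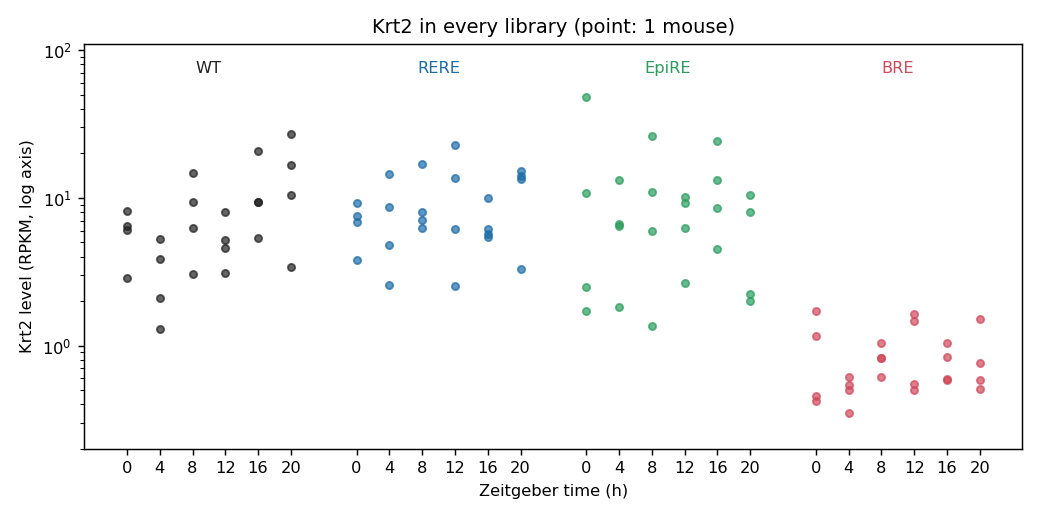
Krt2 level in RPKM (log axis) in every library by zeitgeber time; each point is 1 mouse. BRE mice (0.347 to 1.72 RPKM) are low at all 6 times, and WT, RERE and EpiRE mice scatter widely at each time.

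A daily rhythm was measured as the peak-to-trough difference of a fitted 24 h cosine on the log2 scale, and a gene was called rhythmic at an adjusted p below 0.05 over all tested genes. In WT 1 of 18 keratins was called, against 34.4% of all tested genes. In RERE 2 of 18 were called (16.4% of tested genes), in EpiRE 0 of 18 (2.87%) and in BRE 4 of 18 (17.1%). In EpiRE 2 keratins, Krt25 and Krt80, had an unadjusted p below 0.05 in limma (20.5% of tested genes did), and this count was 4 in WT (45.4%), 2 in RERE (31.4%) and 6 in BRE (34.2%). By this unadjusted measure, no genotype had more keratins than the background share. The median fitted size was 0.40 in WT, 0.29 in RERE, 0.33 in EpiRE, with 0.32 in BRE over the keratins, and 0.23, 0.18, 0.15 and 0.20 over all tested genes. A fitted size cannot be negative and grows with the spread between mice, so these medians do not show larger rhythms. Fewer keratins than background were called in WT, and the counts in RERE and BRE are near it.

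That spread was wide. The median SD between mice of 1 genotype and time was 0.31 on the log2 scale for keratins in WT, 0.28 in RERE, 0.30 in EpiRE, with 0.32 in BRE, against 0.15, 0.15, 0.15 and 0.16 over all tested genes. All 18 keratins lay above the median gene in WT and in RERE, and 17 of 18 in EpiRE and in BRE. Krt2 varied most in EpiRE (SD 1.46), and Krt5 was among the steadiest in WT (SD 0.16). In the authors' deposited tables, 0 of 18 measured keratins had a JTK_CYCLE or BIOCYCLE q value below 0.05 in any genotype, and the lowest was 0.0814 (JTK_CYCLE, Krt25 in BRE). The share of all genes below 0.05 in those tables is not given here, so this count is not read as a result about keratins.

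**Figure D3:**
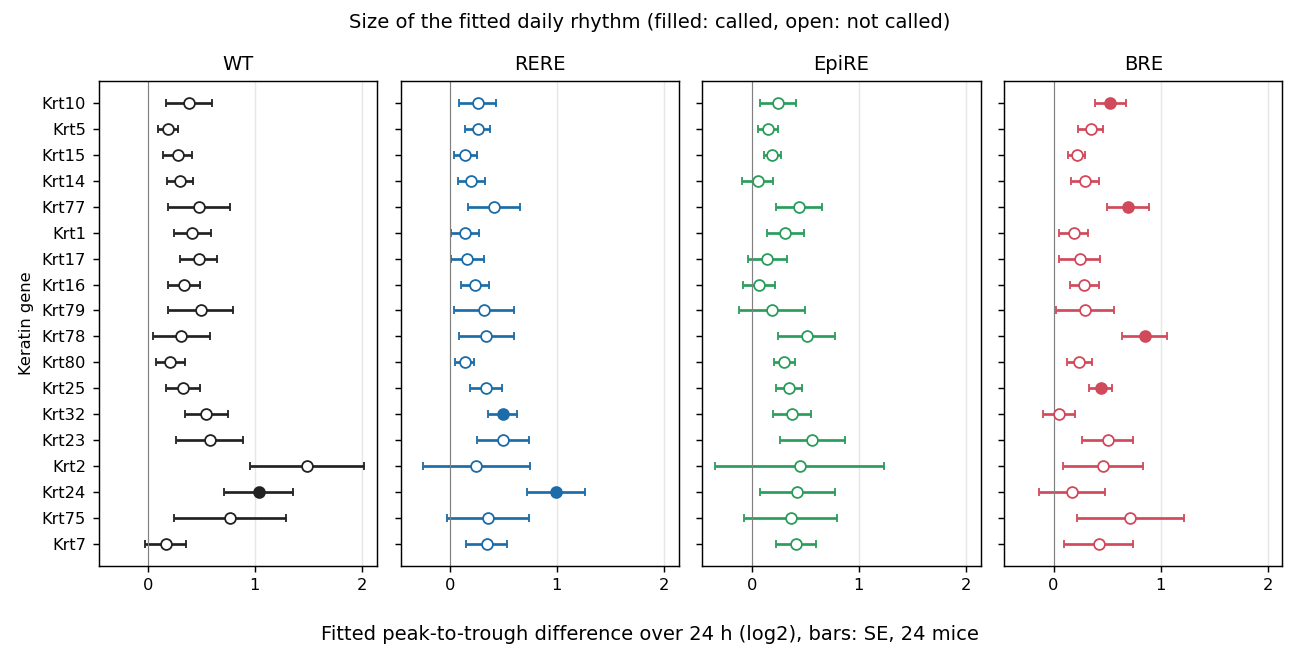
Fitted peak-to-trough difference of each measured keratin on the log2 scale with its SE (24 mice), 1 panel per genotype; filled points were called. Filled points are Krt24 in WT, Krt24 and Krt32 in RERE, none in EpiRE, and Krt10, Krt25, Krt77 and Krt78 in BRE.

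Basal keratins were not called in any genotype. Krt5 had a size of 0.19 ± 0.09 with its peak at ZT15.8 in WT (adjusted p = 0.257), 0.26 ± 0.12 in RERE (0.246), 0.15 ± 0.09 in EpiRE (0.566) and 0.35 ± 0.11 with its peak at ZT0.756 in BRE (0.0868). Krt14 had 0.30 ± 0.12, 0.20 ± 0.12, 0.06 ± 0.14 and 0.29 ± 0.13 in the same order, and Krt15 had 0.28 ± 0.14, 0.15 ± 0.10, 0.19 ± 0.08 and 0.22 ± 0.08. The lowest adjusted p of the latter pair was 0.122, for Krt15 in BRE.

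Suprabasal keratins gave 3 of the 4 calls in BRE. There, Krt78 had the largest rhythm of the family, 0.85 ± 0.21 on the log2 scale or 1.80-fold, with its peak at ZT12.3 (adjusted p = 0.0235). Krt77 varied by 0.70 ± 0.19 with its peak at ZT10.7 (adjusted p = 0.0419), and Krt10 by 0.53 ± 0.14 with its peak at ZT10.6 (adjusted p = 0.0363). The peaks of these 3 genes lie within 2 h of lights off, and the SE of each peak time is about 1 h (0.942 to 1.06 h).

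Krt10 in BRE was at 8754, 5630, 5147 and 6245 RPKM in the 4 mice at ZT0 and at 8485, 9147, 10320 and 7140 at ZT12. Apart from the first ZT0 mouse, all ZT0 values lay below all ZT12 values. Krt77 in BRE was at 3816, 2080, 2099 and 2610 RPKM at ZT0 and at 3276, 5619, 3177 and 5266 at ZT8, and again the first ZT0 mouse overlapped the later group. Krt78 in BRE was at 105, 50.5, 50.5 and 63.6 RPKM at ZT0 and at 90.9, 162, 142 and 98.5 at ZT16. The same ZT0 mouse, replicate 1, was the high one for all 3 genes.

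In WT, RERE and EpiRE none of these 3 genes was called. The fitted size in WT was 0.38 ± 0.21 for Krt10, 0.48 ± 0.29 for Krt77 and 0.31 ± 0.27 for Krt78, with adjusted p of 0.333, 0.392 and 0.617 and fitted peaks at ZT24.0, ZT0.822 and ZT23.2. In EpiRE the sizes were 0.25 ± 0.17, 0.44 ± 0.21 and 0.51 ± 0.26, and in RERE 0.26 ± 0.17, 0.41 ± 0.25 and 0.34 ± 0.26. Krt1, the partner of Krt10, was not called in any genotype, with 0.42 ± 0.17 in WT, 0.15 ± 0.13 in RERE, 0.31 ± 0.17 in EpiRE, with 0.19 ± 0.13 in BRE. Krt2, despite a fitted size of 1.49 ± 0.53 in WT, was not called there (adjusted p = 0.0871), nor in RERE (0.25 ± 0.50), EpiRE (0.45 ± 0.79) or BRE (0.46 ± 0.38). The BRE fit of Krt2 rests on a mean of 0.817 RPKM, below the minimum. Krt80 had sizes of 0.14 to 0.31 and was not called.

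Krt24 was the only keratin called in 2 genotypes. It varied by 1.03 ± 0.32 in WT with its peak at ZT22.8 (adjusted p = 0.0458), and by 0.99 ± 0.27 in RERE with its peak at ZT1.82 (adjusted p = 0.0378). In WT it was at 4.38, 5.59, 4.33 and 2.89 RPKM at ZT20 and at 0.707, 2.31, 2.04 and 2.86 at ZT8, and these groups did not overlap. At ZT0, the time nearest its fitted peak in WT, it was at 7.48, 3.34, 2.51 and 2.82 RPKM, which overlaps ZT8. In EpiRE (0.43 ± 0.35) and BRE (0.17 ± 0.31) it was not called. At its mean of 2.89 RPKM this gene is 1 of the 3 members nearest the minimum.

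Of the follicle keratins, Krt25 was called in BRE and Krt32 in RERE. Krt25 varied by 0.44 ± 0.11 in BRE with its peak at ZT18.5 (adjusted p = 0.0221), from 38.2, 47.6, 46.0 and 40.6 RPKM at ZT0 to 58.1, 53.8, 51.4 and 63.4 at ZT20, with no overlap. At ZT16 in BRE, Krt25 was at 45.6, 52.1, 50.2 and 65.4 RPKM, which overlaps ZT0. Fitted sizes of Krt25 in the other genotypes were not far from that (0.33 ± 0.16 in WT, 0.34 ± 0.15 in RERE and 0.35 ± 0.12 in EpiRE, adjusted p = 0.243, 0.240 and 0.188). Of the 51-base exon stretches of Krt25, as long as the reads, 10.6% (206) occur in some other keratin. Krt27, with a mean of 0.457 RPKM, holds 163 of these, and Krt15 holds 9. Reads from such stretches may be lost or counted for the wrong gene, depending on counting options that are not stated here. The level of Krt25 varied with that of the far more abundant Krt15 between mice (r from 0.755 to 0.932 over the genotypes). The part of such reads in the Krt25 values was not tested. Krt32 varied by 0.49 ± 0.13 in RERE with its peak at ZT12.3 (adjusted p = 0.0359), from 10.9, 13, 9.04 and 12.5 RPKM at ZT0 to 17.6, 15.4, 16.1 and 13.8 at ZT16, with no overlap. It had 0.55 ± 0.20 in WT (adjusted p = 0.0926), 0.37 ± 0.18 in EpiRE and 0.05 ± 0.15 in BRE.

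Stress and infundibulum keratins were not called. Krt16 had sizes of 0.34 ± 0.15 in WT, 0.24 ± 0.13 in RERE, 0.07 ± 0.15 in EpiRE, with 0.29 ± 0.13 in BRE. Krt17 had 0.47 ± 0.17 in WT (adjusted p = 0.0894), 0.17 ± 0.16, 0.15 ± 0.18 and 0.24 ± 0.19, and Krt79 had 0.49 ± 0.30, 0.32 ± 0.28, 0.19 ± 0.31 and 0.29 ± 0.27 in the same order. The lettered keratins Krt6a and Krt6b, partners of Krt16 and Krt17 that lie outside the naming rule, were not called in any genotype either.

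All 7 calls of a rhythm were close to the threshold. Rescaling each library by median of ratios ended that of Krt24 in WT (adjusted p = 0.05356) and added Krt32 there (0.0461). With the mice of 1 replicate number left out at a time (18 libraries), each of them was lost in 3 of 4 cases, and the number of called keratins in BRE ran from 0 to 7. Leaving out single libraries ended the call of Krt25 in BRE in 0 of 24 cases and that of Krt78 in 2 of 24, without replicate 2 or 3 at ZT0 (adjusted p = 0.0512 and 0.0543). The calls of Krt10 (8 of 24), Krt77 (14), Krt32 in RERE (6), and Krt24 in WT (16) and RERE (10) depended on more libraries, with adjusted p of at most 0.103.

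In WT the daily means of Krt10, Krt1 and Krt77 were lowest at ZT12 and did not follow a simple cosine. Krt2 and Krt24 had their lowest WT means at ZT4 and ZT8. At ZT12 Krt10 was at 4087, 5461, 3722 and 3901 RPKM, below all 4 mice at ZT0 (8159, 7454, 5783 and 9761) and all 4 at ZT16 (7477, 6495, 6150 and 9394). Krt1 behaved alike, with 1709, 1972, 1440 and 1560 RPKM at ZT12 and 3291, 2598, 2541 and 3457 at ZT16. Krt77 at ZT12, at 1459, 2122, 1232 and 1654 RPKM, was below all 4 mice at ZT0 (3949, 2924, 2370 and 4119).

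A test of the 6 times as separate levels, without a cosine, called 4 keratins in WT, namely Krt1 (adjusted p = 0.00178), Krt10 (0.0206), Krt78 (0.0457) and Krt17 (0.0494). Krt77 was not among the 4, and Krt24 (0.0700) was no longer called. The share of all tested genes called by this test is not given here, so its counts are not set against a background. The same test called 0 keratins in RERE, 1 in EpiRE (Krt25, adjusted p = 0.0238) and 1 in BRE (Krt25 again). Under it the BRE rhythms of Krt10, Krt77 and Krt78 had adjusted p of 0.164, 0.124 and 0.0777.

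**Figure D4:**
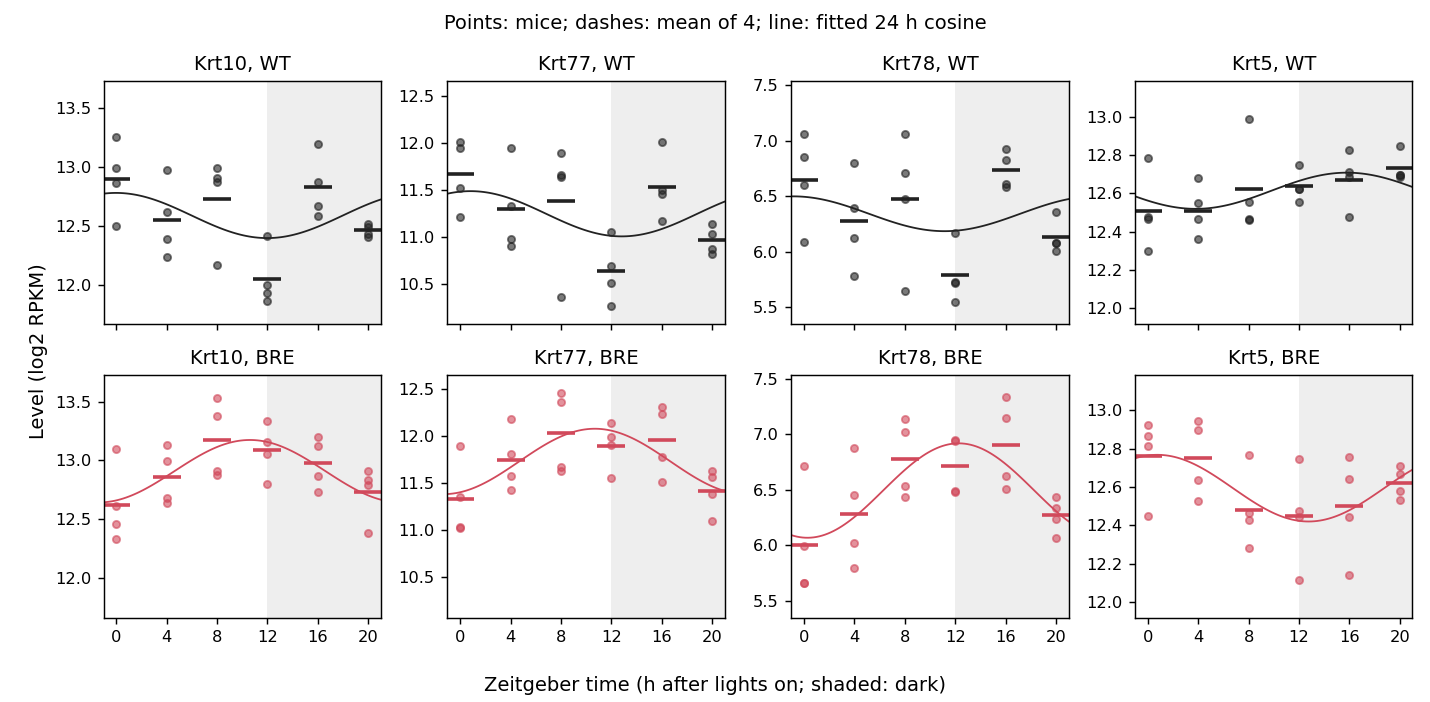
Level (log2 RPKM) of Krt10, Krt77, Krt78 and Krt5 by zeitgeber time in WT (top) and BRE (bottom); points are mice, dashes the mean of 4, lines the fitted cosine, and shading marks darkness. The suprabasal genes dip at ZT12 in WT and are high from ZT8 to ZT16 in BRE, where Krt5 is low from ZT8 to ZT16.

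Whether a rhythm differs between genotypes was tested directly, as the difference in cosine and sine terms over 48 libraries. Between WT and BRE, the contrast of an intact clock with a clock in the brain only, 4 of 18 keratins differed (20.2% of tested genes did), namely Krt10 (adjusted p = 0.0309), Krt5 (0.0374), Krt78 (0.0383) and Krt77 (0.0494). Between EpiRE and BRE, 5 of 18 differed (13.9% of tested genes), namely Krt78 (adjusted p = 0.0170), Krt77 (0.0280), Krt80 (0.0307), Krt10 (0.0392) and Krt15 (0.0476). These contrasts share the BRE mice. The WT to BRE count is close to the background share and the EpiRE to BRE count lies above it.

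The other contrasts gave no call. Between WT and RERE 0 of 18 keratins differed (0.453% of tested genes), between WT and EpiRE 0 (8.51%), between RERE and EpiRE 0 (4.04%) and between RERE and BRE 0 (4.79%). At an unadjusted p below 0.05 in limma the counts were 3 (13.7% of tested genes), 1 (25.6%), 3 (19.1%) and 0 (14.0%), near or below the background. In the contrasts with calls, the unadjusted counts were 9 between WT and BRE (35.4% of tested genes) and 7 between EpiRE and BRE (31.0%). The first is above the background and the second near it. Members of a count are not independent, since Krt10, Krt77 and Krt78 varied together between mice (r from 0.901 to 0.934 over 96 libraries).

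Fitted peak times and sizes of the genes that differed were as follows. Krt10 had its fitted peak at ZT24.0 ± 2.12 h in WT and ZT10.6 ± 1.03 h in BRE, with sizes of 0.38 and 0.53 whose difference of -0.15 ± 0.26 was smaller than its SE. For Krt77 the sizes of 0.48 and 0.70 differed by -0.21 ± 0.35, with peaks at ZT0.822 and ZT10.7. For Krt78 they differed by -0.54 ± 0.34, with peaks at ZT23.2 and ZT12.3. The peaks in WT belong to fits that were not called, so their times are uncertain.

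Krt5 ran the other way. Its fitted peak was at ZT15.8 ± 1.90 h in WT and at ZT0.756 ± 1.26 h in BRE, and the sizes of 0.19 and 0.35 differed by -0.16 ± 0.15. In BRE it was at 5580, 7449, 7200 and 7763 RPKM at ZT0 and at 6872, 4442, 5692 and 5575 at ZT12, which overlap. In WT it was at 5705, 5659, 7060 and 5032 RPKM at ZT0 and at 6577, 6635, 7366 and 6645 at ZT20, which also overlap.

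Krt80 and Krt15 differed between EpiRE and BRE without being called in either. Krt80 had 0.31 ± 0.10 with its peak at ZT1.74 in EpiRE and 0.24 ± 0.11 with its peak at ZT13.5 in BRE. In EpiRE it was at 92.6, 80.8, 86.3 and 93.2 RPKM at ZT0 and at 75.1, 78.7, 54.1 and 73.9 at ZT12, with no overlap. Krt15 had 0.19 ± 0.08 with its peak at ZT12.4 in EpiRE and 0.22 ± 0.08 with its peak at ZT21.1 in BRE.

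These differences are no firmer than the rhythms. The shares of all tested genes under the settings below are not given here. With the mice of 1 replicate number left out, 0 to 4 keratins differed between WT and BRE and 0 to 3 between EpiRE and BRE, and with no filter on low values 0 and 1 (Krt78) did. The calls of Krt10 and Krt77 between WT and BRE, and of Krt77 and Krt15 between EpiRE and BRE, ended in all 4 of these leave-outs, and the other 5 calls in 2 or 3 of 4. With the 6 times as separate levels, Krt10 and Krt1 (adjusted p = 0.0169) differed between WT and BRE, while Krt5 (0.185), Krt77 (0.0640) and Krt78 (0.0559) did not pass. Between EpiRE and BRE, Krt15 (adjusted p = 0.0460) was then called, and Krt10, Krt77, Krt78 and Krt80 were not (0.155, 0.134, 0.0930 and 0.115). Rescaling each library by median of ratios ended the WT to BRE calls of Krt5 (adjusted p = 0.0675) and Krt77 (0.05168) and the EpiRE to BRE call of Krt15 (0.144).

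Markers of the cell layers are given without their keratins, which make up most of the sums, a choice made after the values were seen. The 3 other basal markers in BRE (Itga6, Itgb4 and Col17a1, which anchor basal cells to the basement membrane) summed to 907 to 1410 RPKM, with a fitted size of 0.33 ± 0.08 and a peak at ZT20.9. Itga6 (0.44 ± 0.10, adjusted p = 0.0135 in limma) and Col17a1 (0.33 ± 0.08, 0.0306) were called there and Itgb4 was not (0.0932). In WT the same sum had 0.37 ± 0.09 with its peak at ZT10.0, in RERE 0.16 ± 0.06 and in EpiRE 0.12 ± 0.07. The 3 other suprabasal markers found in the tables (Dsg1a, Lor and Ivl) summed to 499 to 895 RPKM in BRE, with a size of 0.28 ± 0.14 and a peak at ZT9.92, and in WT had 0.43 ± 0.16 with a peak at ZT1.16. Of these, Ivl, a cornified envelope protein, was called in BRE (1.12 ± 0.23, ZT14.0, adjusted p = 0.00849 in limma) and in WT (1.16 ± 0.36, ZT21.8, 0.0436), and Dsg1a and Lor were called in neither. The 6 T cell markers summed to 47.5 to 98.1 RPKM in BRE with a size of 0.45 ± 0.18 (peak ZT23.8), and the size was 1.07 ± 0.15 in WT, 1.06 ± 0.13 in RERE and 0.25 ± 0.18 in EpiRE. The part of a shift between layers or cell types in the keratin rhythms was not tested.

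Ratios within a library do not move with its scaling. The log2 ratio of Krt10 to Krt14, suprabasal over basal, had a fitted daily size of 0.79 ± 0.25 with its peak at ZT11.5 in BRE, 0.57 ± 0.29 at ZT1.95 in WT, 0.12 ± 0.25 in RERE and 0.30 ± 0.25 in EpiRE. For Krt10 to Krt1, the suprabasal partners, the size was 0.41 ± 0.11 with its peak at ZT11.8 in BRE, 0.27 ± 0.11 at ZT5.10 in WT, 0.28 ± 0.10 at ZT8.16 in RERE and 0.30 ± 0.09 at ZT3.50 in EpiRE. Krt77 to Krt1 had 0.57 ± 0.18 with its peak at ZT11.5 in BRE, a like 0.57 ± 0.19 at ZT3.32 in EpiRE, 0.45 ± 0.20 at ZT8.13 in RERE and 0.40 ± 0.21 at ZT4.52 in WT. For Krt14 to Krt5, the basal partners, the sizes were 0.06 to 0.12, and the mean of that ratio ran from -1.18 ± 0.13 in EpiRE over -1.13 ± 0.09 in RERE and -1.06 ± 0.11 in BRE to -1.005 ± 0.15 in WT (SD, n = 24).

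The remaining ratios had sizes close to their SE or uneven between genotypes. Krt15 to Krt14 had 0.35 ± 0.18 in WT, 0.31 ± 0.13 in RERE, 0.14 ± 0.17 in EpiRE, with 0.26 ± 0.11 in BRE, and its mean was 0.25 ± 0.32 in WT, 0.56 ± 0.25 in RERE, 0.59 ± 0.29 in EpiRE, with 0.24 ± 0.21 in BRE. Krt16 to Krt17 had sizes of 0.15 to 0.33. Krt1 to Krt5 had 0.44 ± 0.21 in WT and 0.44 ± 0.18 in BRE, with peaks at ZT23.1 and ZT11.2.

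Mice of 1 genotype and time also differed in a shared pattern. Over deviations from the means of genotype and time (24 libraries per genotype, 36 relations, permutation within time points, Benjamini-Hochberg adjusted), the basal partners Krt5 and Krt14 varied together in every genotype. Pearson's r was 0.704 in WT, 0.899 in RERE, 0.919 in EpiRE, with 0.874 in BRE (adjusted permutation p = 0.00259, 0.00036, 3.27e-05 and 0.000106), and Spearman's rho was 0.528, 0.774, 0.922 and 0.877 (adjusted permutation p = 0.0267, 0.000867, 3.6e-05 and 0.000135). Without the 2 mice farthest from the median of Krt5, r was 0.558, 0.800, 0.885 and 0.831.

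Krt1 and Krt10 did the same. Their r was 0.744, 0.815, 0.859 and 0.737 in WT, RERE, EpiRE and BRE (adjusted permutation p = 0.00018, 6.75e-05, 0.000234 and 0.00122), rho was 0.751, 0.791, 0.799 and 0.710 (adjusted permutation p = 0.000455, 0.000148, 0.00063 and 0.00236), and r without the 2 farthest mice was 0.669, 0.745, 0.819 and 0.656. For scale, the r of Krt10 with all other tested genes had a 95th percentile of 0.589 to 0.654 over the genotypes.

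Basal and suprabasal chains had negative correlations, of which those in RERE and BRE passed an adjusted p of 0.05 for r and only that in BRE did for rho. For Krt5 and Krt10, r was -0.453 in WT, -0.444 in RERE, -0.218 in EpiRE, with -0.499 in BRE, at adjusted permutation p of 0.114, 0.0448, 0.483 and 0.0367, and rho was -0.308, -0.470, -0.111 and -0.480 with adjusted permutation p of 0.253, 0.0516, 0.673 and 0.0425. Without the 2 farthest mice r was -0.050, -0.330, -0.129 and -0.510, so in WT the value rested on those 2 mice, in RERE it weakened without them and in BRE it did not. With all other tested genes, the 5th percentile of r was -0.571 for Krt5 and -0.581 for Krt10 in RERE, and -0.580 and -0.677 in BRE, so both values lie within the common range of either gene.

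Among the 4 pairs added after the values were seen, Krt10 with Krt77 had r of 0.939 in WT, 0.956 in RERE, 0.877 in EpiRE, with 0.969 in BRE. Krt17 with Krt79 had 0.927, 0.867, 0.903 and 0.977. Krt15 with Krt25, which share 9 of their 51-base exon stretches, had 0.932, 0.830, 0.756 and 0.755. Krt14 with Krt16 had 0.969, 0.985, 0.992 and 0.984, but these 2 genes share 182 exact 51-base stretches, the length of the reads. Of the stretches of Krt14, 13.4% are found in some other keratin, and 12% of those of Krt16. Reads from them may be lost or counted for the wrong gene, depending on counting options that are not stated here. The part of such reads in these r was not tested. The adjusted permutation p of r was at most 0.00481 over these 16 relations and that of rho at most 0.00309. Spearman's rho ran from 0.733 to 0.989, and r without the 2 farthest mice from 0.661 to 0.989.

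Unmeasured partners gave mixed values. Krt8 and Krt18 had no adjusted p below 0.05 in any genotype (r from -0.049 to 0.409, rho from -0.082 to 0.266, adjusted permutation p of r at least 0.148). Krt71 and Krt27, inner root sheath partners, had r of 0.902 in WT, 0.549 in RERE, 0.725 in EpiRE, with -0.178 in BRE (adjusted permutation p = 6.75e-05, 0.0298, 0.00546 and 0.486), with rho of 0.880, 0.545, 0.662 and -0.199 (adjusted permutation p = 7.2e-05, 0.0267, 0.00822 and 0.429). Their r without the 2 farthest mice was 0.862, 0.417, 0.730 and -0.191. All mice of a genotype share 1 normalization, and depth was not a term.

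**Figure D5:**
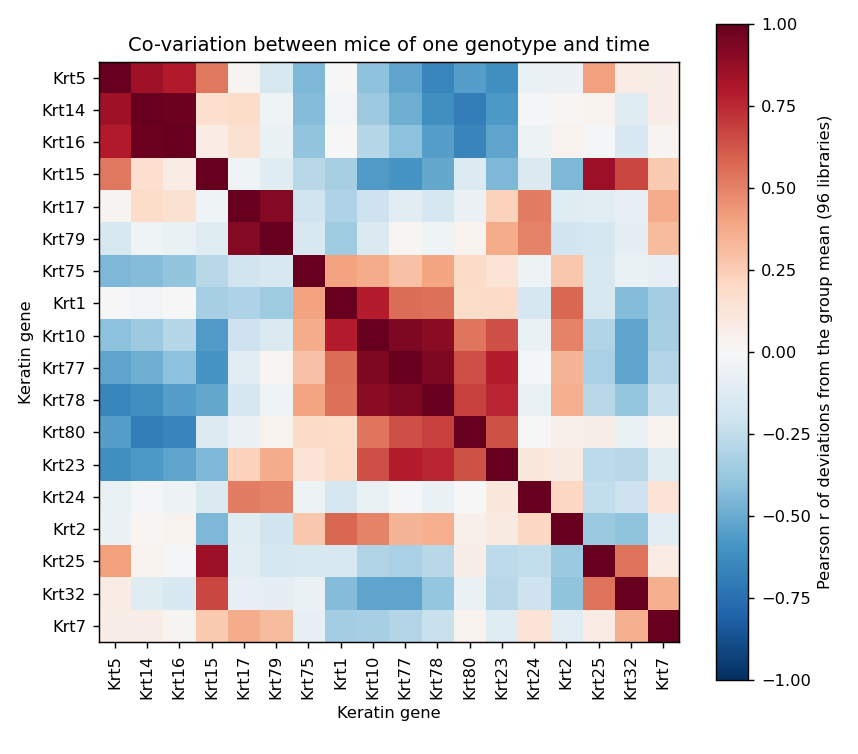
Pearson r between each pair of the 18 measured keratins over 96 libraries, from deviations from the mean of each genotype and time, with both axes listing genes by role. Red blocks join Krt5, Krt14 and Krt16, then Krt17 and Krt79, then Krt1, Krt10, Krt77 and Krt78. Blue fills join the first of these blocks with the suprabasal genes Krt77, Krt78 and Krt80, and with Krt23.

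Genes that act on keratin filaments were called in WT, RERE and BRE. Of 18 tested genes that link keratin filaments to junctions or to each other, 5 were called in WT (34.4% of all tested genes were), 4 in RERE (16.4%), 0 in EpiRE (2.87%) and 6 in BRE (17.1%). At an unadjusted p below 0.05 in limma there were 5 in EpiRE, against 20.5% of tested genes. The counts in WT and RERE are near the share of all genes, and that in BRE lies above it. Dst, a plakin that ties keratin to hemidesmosomes, varied by 1.03 ± 0.10 in WT with its peak at ZT9.40 (adjusted p = 5.15e-07), by 0.88 ± 0.13 in RERE and by 0.48 ± 0.13 in BRE with its peak at ZT15.8. Ppl, the plakin of desmosomes and the cornified envelope, was called in WT (0.39 ± 0.06, ZT10.0) and RERE (0.49 ± 0.07, ZT10.8). In BRE, Hrnr, a filaggrin-like protein that bundles with keratin in the outer layers, varied by 1.33 ± 0.33 with its peak at ZT13.2 (adjusted p = 0.0242), and Tgm1, which crosslinks the envelope, by 0.88 ± 0.22 peaking at ZT13.1 (adjusted p = 0.0260).

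Of 25 tested regulators of keratin genes, 7 were called in WT, 1 in RERE, 0 in EpiRE (3 at an unadjusted p below 0.05 in limma, against 20.5% of tested genes) and 5 in BRE. Set beside the same shares of all tested genes (34.4%, 16.4%, 2.87% and 17.1%), the counts in WT and BRE are near the background and that in RERE is below it. Klf5, a basal keratinocyte factor, varied by 0.45 ± 0.07 in WT with its peak at ZT9.93 (adjusted p = 0.000218) and by 0.33 ± 0.07 in RERE. Klf4, a factor of differentiation, varied by 0.46 ± 0.12 in WT with its peak at ZT9.82. In BRE, Notch1, a receptor that drives basal cells to differentiate, varied by 0.46 ± 0.08 with its peak at ZT22.2 (adjusted p = 0.00336), and Grhl3, a factor of late differentiation, by 0.36 ± 0.10 with its peak at ZT11.6 (adjusted p = 0.0483).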

How the data were processed

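Messenger RNA of 96 libraries was sequenced as 51-base reads. Per the submitters' processing notes, reads were handled with Trimmomatic 0.36, HISAT2 2.2.1, SAMtools 1.3.1, featureCounts 1.6.0 and edgeR (mm10). The authors deposited log2 values, 1 table per genotype. Their unit is not given in the sources used here, and they behave as log2 RPKM with a prior count of 2 reads, which was inferred from their floors together with depth. The q value and peak time of JTK_CYCLE and the q value of BIOCYCLE were also deposited by the authors. The 96 sample columns of the JTK_CYCLE tables were not used.

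Each gene at or above a mean of 1 RPKM was fitted with limma 3.58.1 in R 4.3.3 (eBayes with trend) to a 24 h cosine and sine. F tests of these terms, or of their interaction with genotype, were adjusted over all tested genes (Benjamini and Hochberg). The code was tested on simulated data. Positions are from GENCODE M21 and promoters from RefSeq GRCm38.p6.

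Members and gene lists were chosen with earlier results of these data known. Named were Krt5, Krt14, Krt15, Krt1, Krt10, Krt2, Krt77, Krt16, Krt17, Krt79, Krt8 and Krt18, each other member called anywhere, the 3 members nearest the minimum on each side, and up to 4 genes per other list. Other members have their level given. No label says that mice came from separate litters or cages. Alternatives were the filter, an offset of 1, rescaling, no trend, separate time points, a replicate block and leaving out libraries.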

Additional observations from a re-analysis of the deposited data

Results flagged for a closer look

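In 28 of 432 groups of 4 mice, 1 mouse stood far from the other 3 in a keratin's level, and chance alone gives about 1 in 20 such groups. In WT, replicate 1 at ZT8 stood apart in 4 genes: it was lowest for Krt10 (4592 RPKM), Krt77 (1314 RPKM) and Krt80 (57.7 RPKM) and highest for Krt15 (5403 RPKM). Replicate 4 at ZT16 was highest for Krt14 (4274 RPKM) and Krt16 (673 RPKM), replicate 3 at ZT20 for Krt5 (7366 RPKM) and Krt32 (12.6 RPKM). Replicate 4 at ZT0 was lowest for Krt7 (0.740 RPKM) and replicate 2 at ZT16 for Krt24 (1.58 RPKM).

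In RERE, replicate 2 at ZT8 was highest for Krt5 (6962 RPKM) and lowest for Krt17 (293 RPKM) and Krt23 (5.48 RPKM). Replicate 2 at ZT16 was lowest for Krt23 (5.04 RPKM), replicate 1 at ZT16 highest for Krt7 (2.15 RPKM), and replicate 1 at ZT20 lowest for Krt2 (3.32 RPKM) and highest for Krt16 (447 RPKM). In EpiRE, replicate 4 was lowest for Krt10 at ZT4 (5301 RPKM) and at ZT8 (3330 RPKM), replicate 1 at ZT4 for Krt14 (2182 RPKM), replicate 2 at ZT4 for Krt25 (41.1 RPKM), replicate 3 at ZT12 for Krt80 (54.1 RPKM) and replicate 1 at ZT20 for Krt7 (0.841 RPKM), while replicate 2 at ZT20 was highest for Krt75 (2.71 RPKM). In BRE, replicate 3 at ZT4 was highest for Krt1 (2681 RPKM), replicate 1 at ZT0 for Krt23 (13.6 RPKM) and replicate 2 at ZT20 for Krt7 (2.17 RPKM), and replicate 3 at ZT8 was lowest for Krt23 (10.6 RPKM).

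The fitted rhythm differed between WT and BRE for Krt5 (limma, adjusted p = 0.0374), Krt10 (0.0309), Krt77 (0.0494) and Krt78 (0.0383). It differed between EpiRE and BRE for Krt10 (limma, adjusted p = 0.0392), Krt15 (0.0476), Krt77 (0.0280), Krt78 (0.0170) and Krt80 (0.0307).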

How the results depend on the processing

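Counts of called keratins were small, and several settings moved them. The shares of all tested genes under these settings are not given here, so the counts are not set against a background. With no filter on low values, 0 keratins were called in WT, 0 in RERE and 2 in BRE, 0 differed between WT and BRE, and 1 between EpiRE and BRE. With a minimum mean of 5 RPKM, 0 were called in WT and 1 in RERE, since Krt24 is then not tested. With the 6 times as separate levels, 4 were called in WT, 0 in RERE, 1 in EpiRE, with 1 in BRE, 2 differed between WT and BRE, and 1 between EpiRE and BRE. Median-of-ratios rescaling gave 1 difference between RERE and EpiRE, Krt80 (adjusted p = 0.0483), ended the calls of Krt24 in WT, of Krt5 and Krt77 between WT and BRE and of Krt15 between EpiRE and BRE, and added Krt32 in WT and Krt15 between WT and BRE, so similar counts stand for different genes. Replicate numbers do not pair the mice (median correlation of same-numbered mice -0.021 to 0.006), and with the number as a replicate block 0 keratins were called in WT, while the other counts stayed within 1.5 times of those reported. With an offset of 1 added to the values, or eBayes with no trend, all 180 single values kept their side of the threshold. No called rhythm moved its fitted peak by over 6 h, and sizes cannot change sign. Leaving out 1 replicate number at a time gave 0 to 1 calls in WT, 0 to 1 in RERE, 0 to 0 in EpiRE, with 0 to 7 in BRE, and 0 to 4 differences between WT and BRE, 0 to 3 between EpiRE and BRE, and 0 to 0 in the other 4 contrasts. Leaving out single libraries gave 0 to 2 calls in WT, 0 to 2 in RERE, 0 to 0 in EpiRE, with 1 to 5 in BRE. The causes of these shifts were not tested, apart from the number of genes and libraries. The BRE libraries that ended the call of Krt10 were replicates 2, 3 and 4 at ZT0, 2 and 4 at ZT8, 2 and 3 at ZT12 and 1 at ZT20, and the RERE libraries that ended that of Krt32 were replicates 1 and 3 at ZT0, ZT12 and ZT16. At about 13 to 86 reads per BRE library, Krt2 there has counting error beside its spread between mice.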
